A study of Mus musculus with 48 samples.

Results

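The interferon-stimulated genes described here are 36 mouse genes, chosen by name and found by their Ensembl identifiers among the 55416 genes counted in each liver. They comprise 27 classical type I interferon targets and 9 targets chiefly known for their response to the type II interferon, interferon-γ. Their transcripts were measured by stranded, poly(A)-selected RNA sequencing of 48 flash-frozen C57Bl/6J livers, 8 per group by label, after 8 weeks of western diet, a feed rich in fat and cholesterol that every animal received. In the knock-in study, mice carried no copy (DN:WT), 1 copy (DN:HET) or 2 copies (DN:HOM) of the dominant negative W441R change in LXRα, the oxysterol-activated nuclear receptor encoded by Nr1h3. In the knockout study, mice carried 2 intact copies (KO:WT), 1 intact copy (KO:HET) or none (KO:HOM). Both alleles were carried by the whole animal and not by 1 cell type, the mice of the knock-in study were males, and diets started at about 8 weeks of age. The knock-in line was made by CRISPR-Cas9 and kept at one institute and the knockout line at another, so a difference between the studies cannot be told apart from a difference between sites. The question put to the data was whether the type I and the type II targets moved together in the livers of the 2 models.

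Interferons are secreted proteins that warn neighbouring cells of infection or tissue damage. Type I interferons (the interferon-α family and interferon-β) bind the receptor made of Ifnar1 and Ifnar2 and activate a transcription factor complex that includes Stat2 and Irf9 and binds the interferon-stimulated response element (ISRE). Interferon-γ is made mainly by T cells and natural killer cells, binds Ifngr1 and Ifngr2, and acts through the gamma-activated site (GAS). Interferon-γ also switches on Irf1, which can bind elements of the ISRE kind, so the target genes of the 2 types overlap. In the liver, resident macrophages, infiltrating leukocytes, endothelium and hepatocytes can all respond.

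Promoter sequences show what the 2 classes share. The stretch from 250 bases before to 50 bases after the start site was available from RefSeq (GRCm38.p6) for 26 of the 36 members, and each member promoter occurred exactly once in GRCm39, the build of the coordinates given here. The letters GAAANNGAAA on either strand, the core of an ISRE, stood in the promoters of 10 of 19 type I and 6 of 7 type II members, against 4.0% of the 27025 genes in the table. The GAS letters TTCNNNGAA, which read the same on both strands, stood in 4 of 19 type I and 4 of 7 type II members, against 9.6% of all genes. Both motifs stood in 2 type I members, Bst2 and Oas1a, and in 3 type II members, Gbp7, Igtp and Irgm2, against 0.5% of all genes. A match describes letters only. The stretches below are the motifs of 4 type I and 5 type II members with up to 20 bases on either side, 5′ to 3′ on the strand of the gene, with the motif letters in capitals. They are shown because they place the motifs of both classes side by side, in genes whose levels are given below.
Isg15, chr4:156285312-156285373, minus strand: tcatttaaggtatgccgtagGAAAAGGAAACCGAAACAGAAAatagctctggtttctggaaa
Ifit1, chr19:34618165-34618233, plus strand: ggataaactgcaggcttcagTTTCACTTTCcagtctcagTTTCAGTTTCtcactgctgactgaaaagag
Ifit3, chr19:34560753-34560836, plus strand: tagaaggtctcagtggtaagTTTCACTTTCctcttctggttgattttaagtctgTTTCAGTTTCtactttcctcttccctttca
Stat2, chr10:128106125-128106174, plus strand: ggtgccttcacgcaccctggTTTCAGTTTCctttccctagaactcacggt
Gbp2, chr3:142326345-142326394, plus strand: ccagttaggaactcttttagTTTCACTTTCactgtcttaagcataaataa
Gbp7, chr3:142235971-142236073, plus strand: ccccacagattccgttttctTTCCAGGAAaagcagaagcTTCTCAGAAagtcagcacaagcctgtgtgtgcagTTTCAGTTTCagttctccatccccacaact
Igtp, chr11:58090317-58090377, plus strand: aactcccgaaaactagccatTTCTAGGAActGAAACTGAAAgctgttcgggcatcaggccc
Irgm2, chr11:58105708-58105768, plus strand: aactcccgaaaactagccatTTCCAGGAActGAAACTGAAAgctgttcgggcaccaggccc
Irf1, chr11:53660731-53660779, plus strand: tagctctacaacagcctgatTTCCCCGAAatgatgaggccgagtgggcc

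Isg15 held 3 overlapping ISRE cores, starting 78, 72 and 66 bases before its start site. Ifit1 and Ifit3 held 2 separate cores each. Among the type II members, Gbp2 held an ISRE core and no GAS letters in its window, whereas Irf1 held a GAS 90 bases before its start site and no ISRE core. Igtp and Irgm2, neighbours on chromosome 11, carried a GAS and, after a short gap, an ISRE core within windows of 61 bases that differ at 2 bases. Several members lie in clusters of related genes: Ifit2, Ifit3 and Ifit1 within 104243 bases of chromosome 19, Gbp7, Gbp3 and Gbp2 within 107736 bases of chromosome 3, and Oas2, Oas3 and Oas1a within 178052 bases of chromosome 5.

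Sequencing gave 5332897 to 16961379 reads on genes per liver, and 2 livers, KO:HET animal 3 and KO:HOM animal 17, had under 10000000. Nr1h3 stood at 81.4 to 108 CPM (counts scaled to library size) in KO:WT, 48.3 to 65.4 in KO:HET and 25.2 to 31.1 in KO:HOM, in the order of the labels. A pair of knock-in livers, animal 10 of DN:WT and animal 12 of DN:HOM, could not be found among the study's per-liver source data, and their marker levels went against their labels. Animal 10 had 3.19 CPM of summed resident Kupffer cell markers, inside the DN:HOM range of 1.56 to 3.50 and far from the other DN:WT livers at 131 to 256, and animal 12 had 151. Both were left out of the comparisons, so that DN:WT and DN:HOM have n = 7 and the other groups n = 8, and values with all 48 livers are given where they change the call of a member or a count of another gene list given below. The tissue is bulk liver, in which fewer cells of a type and less RNA per cell cannot be told apart. Hepatocyte markers were present in every liver, with albumin at 20330 CPM or more. The labels do not say whether livers shared a litter, cage or library batch.

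All 36 members were expressed highly enough to be tested. Compared per kilobase of exon over the 15 wild-type livers of both studies, the most abundant was Bst2, which tethers budding viruses to the cell surface, at a mean of 158 CPM per kilobase. The immunity-related GTPase Iigp1 followed at 61.3 CPM per kilobase, then Stat2 at 15.1, the ubiquitin-like protein Isg15 at 14.2 and Irgm2 at 14. The lowest were Ifi44 at 0.745, Oas1a at 0.523 and Oas3 at 0.236 CPM per kilobase.

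Loss of LXRα raised every type II target and a minority of the type I targets. In KO:HOM versus KO:WT livers, 9 of 9 type II and 7 of 27 type I members were higher by edgeR's quasi-likelihood test at a Benjamini-Hochberg adjusted p below 0.05, where 11.5% of the 15711 genes tested were higher. None of the 36 was lower by edgeR or DESeq2, also at an unadjusted p below 0.05, where edgeR gave 7.87% of all genes lower after adjustment and 15.1% before it. The median log2 fold change was 2.22 over the type II members, 0.38 over the type I members and -0.02 over all genes tested. The type II counts and medians held with every alternative processing tried, the medians lying between 2.21 and 2.37.

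The type II members raised in KO:HOM fall into 3 roles. Guanylate-binding proteins (GBPs) coat pathogen-containing vacuoles and help to break them open. Gbp2 had a lowest, median and highest level of 2.89, 5.90 and 19.1 CPM in KO:WT and of 15.7, 77.4 and 149 CPM in KO:HOM. All KO:HOM livers but animals 22 and 30 lay above the highest KO:WT liver. Its log2 fold change was 3.42 ± 0.54 (SE; edgeR adjusted p = 1.7e-05). Gbp6 rose from 2.15, 4.68 and 8.80 CPM to 7.30, 32.5 and 59.8 CPM, with 7 of 8 KO:HOM livers above every KO:WT liver and a log2 fold change of 2.75 ± 0.45 (edgeR adjusted p = 2.1e-05). Reads of Gbp6 could be shared with its close relative Gbp10, and with an overlapping gene model, so its value is less certain. Gbp3 and Gbp7 rose by 2.22 and 1.74 on the log2 scale.

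Immunity-related GTPases guard against intracellular parasites and bacteria. Igtp had a lowest, median and highest level of 22, 32.3 and 61.5 CPM in KO:WT and of 32.2, 324 and 553 CPM in KO:HOM. In 7 of 8 KO:HOM livers it exceeded the highest KO:WT liver, at 112 CPM or more, and animal 22 alone lay inside the KO:WT range. The log2 fold change was 3.20 ± 0.56 (edgeR adjusted p = 5e-05). Irgm2, Irgm1 and Iigp1 of the same family rose by 2.40, 1.78 and 1.48 on the log2 scale. Igtp and Irgm2 share exon sequence on the same strand, so reads could be divided between them.

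Irf1 is the transcription factor through which interferon-γ reaches a second tier of genes. It had a lowest, median and highest level of 19.4, 29.2 and 46.2 CPM in KO:WT and of 33.3, 89.0 and 143 CPM in KO:HOM. Again only animal 22 of KO:HOM lay inside the KO:WT range. The log2 fold change was 1.53 ± 0.28 (edgeR adjusted p = 0.0001).

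Among the type I members, the largest rise in KO:HOM was that of Zbp1, a sensor of Z-form nucleic acids that can start necroptosis. Its lowest, median and highest levels were 3.50, 6.62 and 10.3 CPM in KO:WT and 7.55, 40.1 and 60.9 CPM in KO:HOM. Animals 22 and 30 of KO:HOM overlapped the KO:WT range and the other 6 livers lay above it, for a log2 fold change of 2.36 ± 0.46 (edgeR adjusted p = 0.00022). Oasl2, an oligoadenylate synthetase-like protein, went from 3.95, 6.02 and 9.54 CPM to 5.22, 20.4 and 27.5 CPM (log2 fold change 1.47 ± 0.38, edgeR adjusted p = 0.0038). Ifit2, which binds viral RNA and restrains its translation, went from 2.66, 5.16 and 8.78 CPM to 5.74, 14.4 and 26.2 CPM (log2 fold change 1.30 ± 0.33, edgeR adjusted p = 0.0041). For both genes animals 22 and 30 lay within the KO:WT range. The other type I members called higher were the ADP-ribosyltransferase Parp14 (0.93), the chaperone Rtp4 (0.86), Trim30a (0.70) and the RNA-binding Ifit3 (0.69 on the log2 scale). The call of Ifit3 was lost with all 48 livers (edgeR adjusted p = 0.069) and that of Trim30a without a filter on low counts (0.051). Parp14 and Rtp4 share exon sequence with overlapping gene models, and Ifit3 reads could be shared with its copy Ifit3b.

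Isg15, Irf7, Stat2 and Irf9 were not among the 7 type I members called in KO:HOM. Isg15 stood at 6.51, 9.70 and 19.5 CPM (lowest, median and highest) in KO:WT and 6.11, 12.6 and 23 CPM in KO:HOM. Irf7, the factor that amplifies type I interferon production, stood at 29.8, 35.2 and 80.6 CPM and at 19.8, 51.9 and 71.0 CPM. The groups overlapped over most of their range for both genes, with log2 fold changes of 0.28 ± 0.25 and 0.19 ± 0.29. Stat2 and Irf9, the subunits that mark the type I complex, had log2 fold changes of 0.13 ± 0.11 and 0.18 ± 0.12 (edgeR adjusted p = 0.44 and 0.35). Stat2 ranged from 74.6 to 96.9 CPM in KO:WT and from 66.4 to 125 CPM in KO:HOM, and Irf9 from 29.2 to 46.5 and from 26.3 to 53.3 CPM. The 20 type I members not called lay between -0.23 (Rsad2) and 0.74 (Oas3) on the log2 scale. They include the antiviral GTPases Mx1 (0.59) and Mx2 (0.14), Ifit1 (0.38), Usp18 (0.48), Xaf1 (0.62), Ifi44 (0.64), Cmpk2 (0.21), Oasl1 (0.06), Ifi35 (0.05), Bst2 (0.08), Dhx58 (-0.13), the oligoadenylate synthetases Oas1a (0.50) and Oas2 (0.33), and the RNA sensor Ifih1 (0.26).

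**Figure D1:**
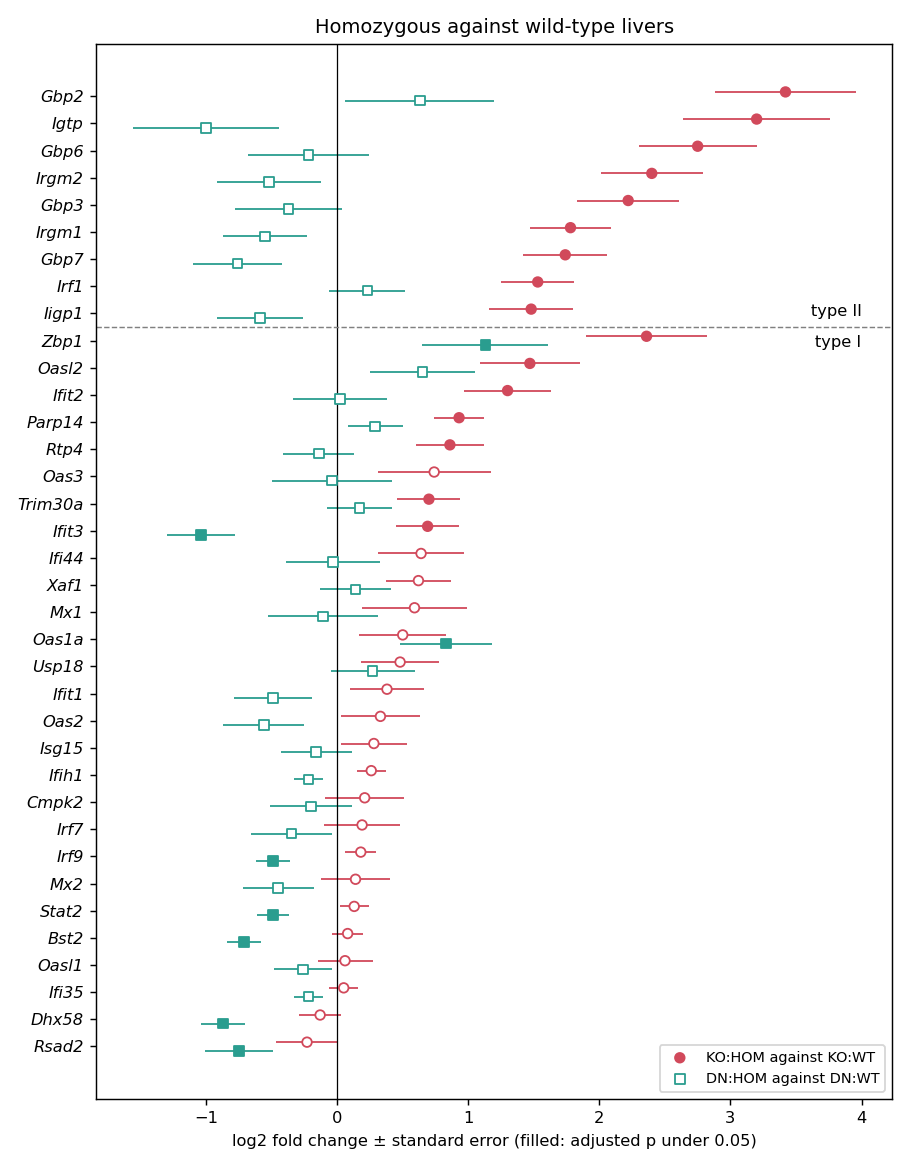
Log2 fold change with its standard error (horizontal axis) of the 36 members (vertical axis) in KO:HOM versus KO:WT livers (circles) and DN:HOM versus DN:WT livers (squares), filled where the edgeR adjusted p was below 0.05. All 9 type II members are filled circles between 1.48 and 3.42, whereas their squares lie between -1.0 and 0.63 and are open.

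The knock-in gave another picture. In DN:HOM versus DN:WT livers no type II member passed edgeR's test in either direction, in a comparison where 29.1% of all genes were higher and 30% lower. Of the 27 type I members 2 were higher and 6 lower, a smaller share in either direction than among all genes. At an unadjusted p below 0.05, edgeR and DESeq2 each gave 1 of the 9 type II members lower and 0 higher, where edgeR gave 31.8% of all genes lower and 31% higher and DESeq2 30.2% and 32.7%. DESeq2 called no type II member after adjustment, where it called 31.1% of all genes higher and 28.6% lower. The median log2 fold change was -0.52 over the type II and -0.20 over the type I members, against -0.01 over all genes.

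The 6 type I members lower in DN:HOM included both subunits that mark the type I complex. Irf9 had a lowest, median and highest level of 37.6, 39.7 and 65.1 CPM in DN:WT and of 25.3, 29.7 and 34.2 CPM in DN:HOM, so that every DN:HOM liver lay below every DN:WT liver (log2 fold change -0.49 ± 0.13, edgeR adjusted p = 0.0015). Part of the Irf9 exon sequence overlaps Rnf31 on the same strand. Stat2 went from 82.1, 102 and 135 CPM to 62.4, 70.5 and 97.1 CPM, with animal 31 of DN:HOM inside the DN:WT range (log2 fold change -0.49 ± 0.12, edgeR adjusted p = 0.00032). Ifit3 went from 12.4, 15.5 and 30.2 CPM to 6.60, 8.12 and 12.2 CPM and Bst2 from 170, 208 and 261 CPM to 119, 121 and 146 CPM, both without overlap. Their log2 fold changes were -1.04 ± 0.26 and -0.71 ± 0.13 (edgeR adjusted p = 0.0006 and 1.2e-05). The RNA helicase Dhx58 fell by 0.87 and Rsad2, which makes a chain-terminating nucleotide, fell by 0.75 on the log2 scale. In 3 of the 27 type I members, and in none of the 9 type II members, every DN:HOM liver lay below every DN:WT liver, where 15.8% of all genes did so.

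The 2 type I members higher in DN:HOM were Oas1a (0.83 ± 0.35, edgeR adjusted p = 0.037) and Zbp1 (1.13 ± 0.48, edgeR adjusted p = 0.039). Zbp1 stood at 3.64, 8.27 and 25.1 CPM (lowest, median and highest) in DN:WT and at 12, 21.1 and 26.8 CPM in DN:HOM. With DN:WT animal 13 set apart, the next highest DN:WT liver was at 8.42 CPM, below every DN:HOM liver. Both calls were lost with all 48 livers (edgeR adjusted p = 0.065 and 0.12). Oas1a reads could be shared with its tandem relatives.

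Igtp, Gbp2, Gbp6 and Irf1, raised in KO:HOM, did not separate the knock-in groups. Igtp stood at 20.3, 33.3 and 205 CPM in DN:WT and at 16.1, 25.5 and 47.5 CPM in DN:HOM, and the groups overlapped. Without DN:WT animal 13 the highest DN:WT liver was at 45.8 CPM, just below DN:HOM animal 19 at 47.5 CPM. Gbp2 stood at 2.69, 5.38 and 15.9 CPM and at 6.70, 10.2 and 15.3 CPM, Gbp6 at 3.73, 6.15 and 20.2 CPM and at 3.83, 6.15 and 9.75 CPM. Irf1 stood at 25.2, 34.1 and 82.8 CPM and at 34.4, 50.5 and 61.5 CPM, a log2 fold change of 0.23 ± 0.29 (edgeR adjusted p = 0.51). Isg15 (-0.16 ± 0.27) and Irf7 (-0.35 ± 0.31) did not pass the test in this study either, with 7.13 to 18.9 and 31.7 to 82.7 CPM in DN:WT and 5.91 to 12.8 and 25.4 to 46.4 CPM in DN:HOM. Oasl2 stood at 4.07, 5.43 and 16.4 CPM in DN:WT and at 6.83, 9.88 and 15.2 CPM in DN:HOM, and Ifit2 at 3.97, 6.13 and 9.83 CPM and at 3.59, 5.84 and 9.11 CPM. Both overlapped, with log2 fold changes of 0.65 ± 0.40 and 0.02 ± 0.36.

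These knock-in values rest on DN:WT animal 13 and on the scaling. Without that liver the median of the type II members was -0.02 and that of the type I members -0.01, and none of the 6 type I members called lower lost its call. Scaling by library size alone moved the median of all genes to 0.42, turned the type I median to 0.23 and left Ifit3 and Dhx58 as the type I members called lower, with Zbp1, Oas1a, Oasl2 and Parp14 called higher. In that fit 11.1% of all genes were called lower and 59.1% higher. With all 48 livers the call of Rsad2 was lost (edgeR adjusted p = 0.23). Fitted on the compared groups alone, Gbp7, Irgm1 and Iigp1 were called lower.

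**Figure D2:**
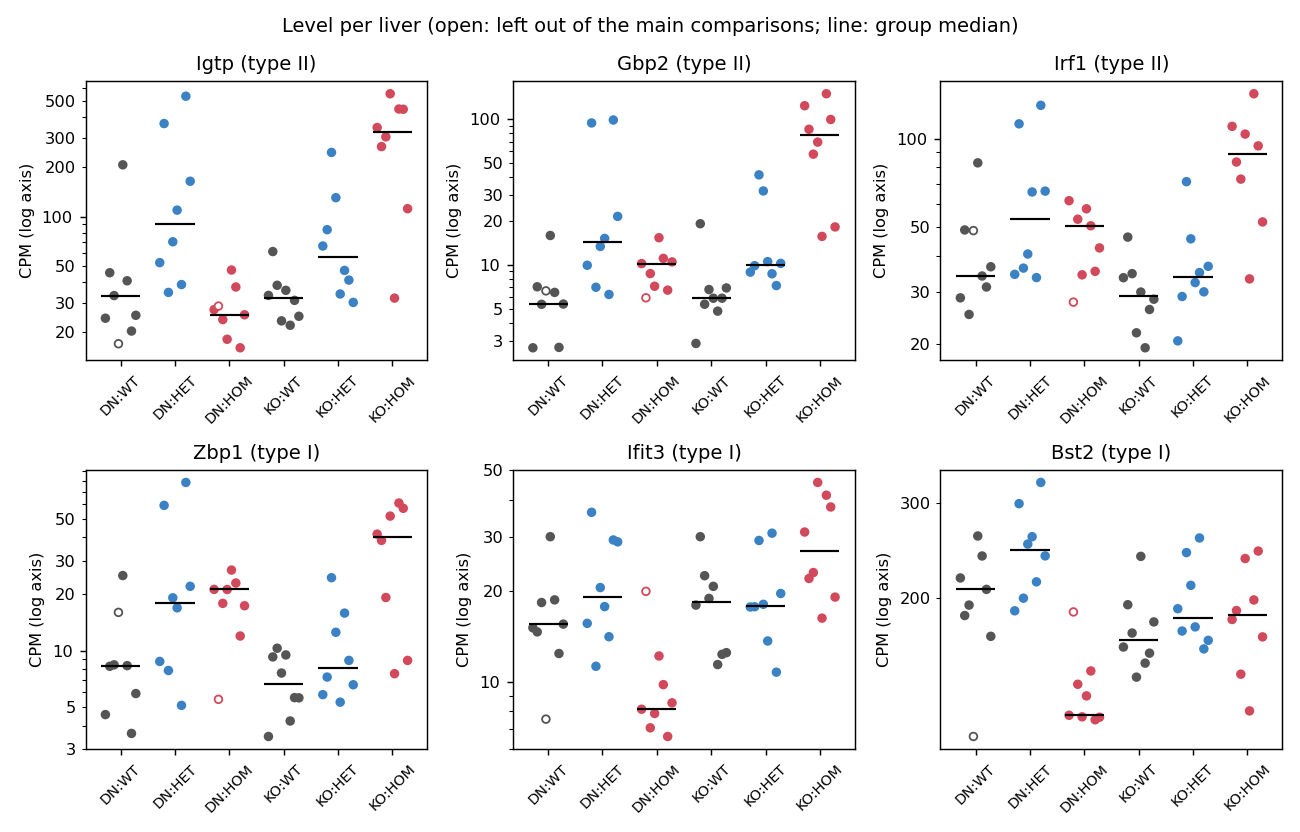
Level in CPM (vertical axis, logarithmic) of 3 type II members (top) and 3 type I members (bottom) in each liver by group (horizontal axis), with the group median as a line and the 2 livers left out as open circles. Igtp, Gbp2 and Irf1 are high in 6 or 7 of 8 KO:HOM livers and in DN:HET animals 4 and 22, and Ifit3 and Bst2 are lowest in DN:HOM.

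Tested directly, the effect of the homozygous knock-in minus that of the homozygous knockout was below 0 for 9 of 9 type II and 8 of 27 type I members by edgeR's test, where it was below 0 for 18.3% of all genes. No member had a difference above 0 that passed, by edgeR or DESeq2 and also at an unadjusted p below 0.05, where 16.5% of all genes passed edgeR's test after adjustment and 20.9% before it. The median difference was -2.60 log2 units over the type II members, -0.64 over the type I members and 0.00 over all genes. Igtp had the largest, at -4.20 ± 0.78 (edgeR adjusted p = 4.1e-05), followed by Gbp6 at -2.97, Irgm2 at -2.93, Gbp2 at -2.79, Gbp3 at -2.60, Gbp7 at -2.50, Irgm1 at -2.32, Iigp1 at -2.07 and Irf1 at -1.29 log2 units. The type I members were Ifit3 (-1.73), Ifit2 (-1.29), Rtp4 (-1.0), Bst2 (-0.79), Dhx58 (-0.74), Irf9 (-0.67), Stat2 (-0.63) and Ifih1 (-0.48). The 9 type II differences remained called with all 48 livers, without DN:WT animal 13 (median -2.25) and without KO:HOM animal 22 (median -2.76), and 8 of them with library size alone, where Irf1 missed the threshold. The type I count fell to 3 (Ifit3, Bst2 and Stat2) with all 48 livers, where 6.42% of all genes passed below 0. With library size alone it was 2 (Ifit3 and Bst2), where 8.50% of all genes did.

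Among the heterozygous livers the type II genes varied widely from animal to animal. In DN:HET versus DN:WT, Gbp2 alone of the 36 members passed edgeR's test (log2 fold change 2.36 ± 0.56, adjusted p = 0.018), where 2.23% of all genes were higher. Its lowest, median and highest levels in DN:HET were 6.26, 14.3 and 98.7 CPM, and animals 4 and 22 held the top values at 94.2 and 98.7 CPM. All 9 type II log2 fold changes were above 0, with a median of 0.87, and the type I median was 0.22. The call of Gbp2 was lost when the compared groups were fitted alone (edgeR adjusted p = 0.2), where 0.0144% of all genes were called higher. Without animals 4 and 22 no member was called, where 0.0126% of all genes were called higher, and the type II median was 0.24. Without DN:WT animal 13, the high liver among the controls, 6 type II members (Gbp2, Gbp3, Gbp6, Gbp7, Igtp and Irgm2) and 2 type I members (Zbp1 and Parp14) were called higher, where 1.89% of all genes were in the same fit, and the type II median was 1.45. At an unadjusted p below 0.05, edgeR gave 8 type II and 5 type I members higher in DN:HET, where 9.46% of all genes were. After adjustment DESeq2 called 3 and 1, where it called 3.79% of all genes higher. In KO:HET versus KO:WT no member was called by edgeR or by DESeq2, where 0.0191% of all genes were called in either direction. At an unadjusted p below 0.05, edgeR gave 4 and DESeq2 5 of the 9 type II members higher, where 2.90% and 3.39% of all genes were, and neither gave any type I member. The type II log2 fold changes lay between 0.32 (Irf1) and 1.31 (Igtp), with a median of 0.69, and the type I median was 0.10.

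Counting, liver by liver, how many members exceeded every wild-type liver of the same study shows where these values come from. In KO:HOM, 6 livers had 9 of 9 type II members above every KO:WT liver, animal 30 had 8 and animal 22 had 0, where 11.3% to 20% of all genes tested lay above in each KO:HOM liver. No member separated KO:HOM from KO:WT completely, where 2.18% of all genes lay higher in every KO:HOM liver. Animal 22 also had 11 of 27 type I members below every KO:WT liver, where 11.6% of all genes did so, while its Nr1h3 level of 25.2 CPM was that of a knockout. The type I members above every KO:WT liver numbered 1 to 22 in the other 7 KO:HOM livers, with 22 and 20 in animals 26 and 27, where 18.6% and 16.7% of all genes lay above.

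Type I and type II genes also came apart in single livers. KO:HET animal 9 had 24 of 27 type I members above every KO:WT liver but 3 of 9 type II members, where 16.4% of all genes lay above, with Oas1a at 11.3 CPM, Usp18 at 38.0 CPM and Irf7 at 88.3 CPM beside Igtp at 47.3 CPM. KO:HET animal 4 showed the reverse order, with 9 of 9 type II and 11 of 27 type I members above, where 12.1% of all genes did so. KO:HET animals 6, 3 and 2 had 8, 6 and 3 type II members above and 4, 1 and 0 type I members, where 11.3%, 10.5% and 7.91% of all genes lay above. In the knock-in study, DN:HET animals 4 and 22 had 8 of 9 type II members and 17 and 18 of 27 type I members above every DN:WT liver, although DN:WT included the high animal 13, where 21.6% and 21.8% of all genes lay above. In the 7 DN:HOM livers no type II member and 0 to 2 type I members lay above every DN:WT liver, where 27.4% to 31% of all genes did. These counts rest on DN:WT animal 13. Against the other 6 DN:WT livers, 0 to 5 type II and 3 to 13 type I members lay above in each DN:HOM liver, where 28.4% to 32% of all genes did, with Gbp2 above in 6 of 7 and Irf1 in 4 of 7 DN:HOM livers. Below every DN:WT liver, animal 13 included, lay 3 to 5 type II members in 5 of the 7 DN:HOM livers and none in DN:HOM animals 19 and 31, and 3 to 12 type I members in each of the 7, where 28.1% to 31.3% of all genes did. Against the 6 DN:WT livers other than animal 13, all 9 type II members lay above in DN:HET animals 4, 16, 22 and 29, 8 in animal 14 and 0 to 5 in animals 1, 8 and 20, where 12.1% to 22.7% of all genes did. Summed over the 9 type II members, DN:HOM livers held 394 to 642 CPM, KO:HOM livers 479 to 3220 CPM, and the wild-type livers of the 2 studies 482 to 1600 and 411 to 735 CPM.

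**Figure D3:**
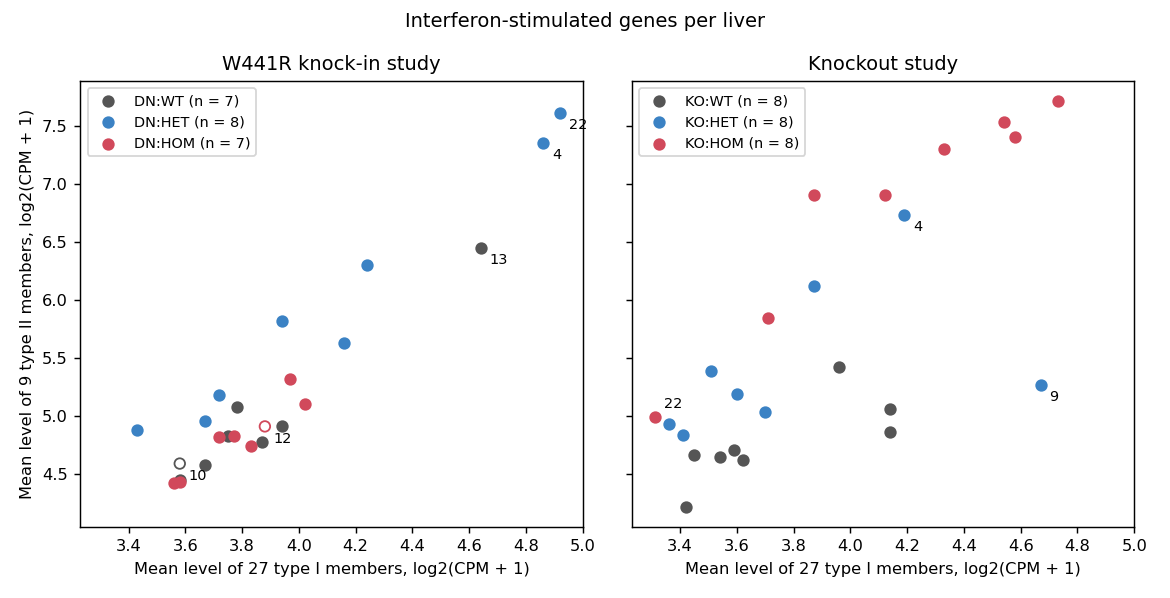
Mean level of the 9 type II members (vertical axis) against that of the 27 type I members (horizontal axis), both as log2(CPM + 1), in each liver of the knock-in study (left) and the knockout study (right), coloured by genotype, with open circles for the 2 livers left out and animal numbers beside livers named in the text. KO:HOM livers other than animal 22 lie at 5.84 to 7.71 on the vertical axis, above every KO:WT liver (4.22 to 5.42), and KO:HET animal 9 lies far to the right at 4.67 with 5.27 on the vertical axis.

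**Figure D4:**
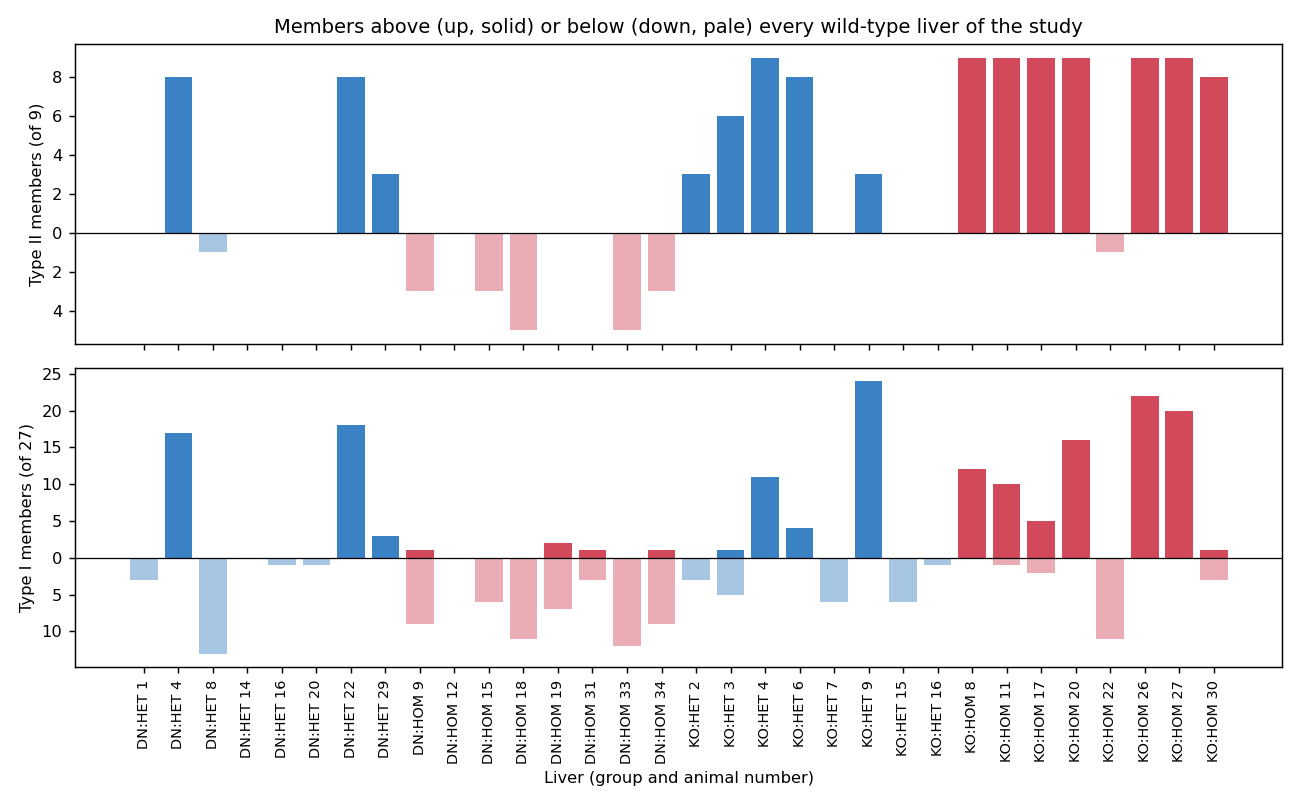
Number of type II members (top, of 9) and type I members (bottom, of 27) whose level lay above (solid, upward) or below (pale, downward) every wild-type liver of the same study, for each heterozygous (blue) and homozygous (red) liver, with DN:HOM animal 12, left out of the comparisons, also drawn. KO:HOM livers other than animal 22 reach 8 or 9 type II members, and DN:HOM livers reach 0, or up to 5 when DN:WT animal 13 is left out.

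The interferons themselves were hardly seen. Of 21 interferon genes, 17 had no read in any of the 48 livers, and a count of 0 allows up to 3 reads. Ifnk had at most 4 reads in a liver, and Ifnz and Ifnl3 had 1 read each in 1 liver. Ifng, which encodes interferon-γ, had 45 reads over the 8 KO:HOM livers against 3 over the 8 KO:WT livers, and 43 over the 8 DN:HET livers against 1 over the 8 livers labelled DN:WT and 12 over the 8 labelled DN:HOM. By liver, DN:HET animals 22, 4 and 29 had 19, 12 and 8 reads. KO:HET animals 4, 2 and 6 had 3, 2 and 2 reads and the other KO:HET livers 0. In KO:HOM, animals 26, 8, 27 and 11 had 16, 8, 7 and 6 reads. Animal 20, highest in the summed type II level but below animal 26 in the mean log2 level (7.53 against 7.71), had 3. Animal 30, second lowest by either measure, also had 3, and animals 17 and 22 had 2 and 0. KO:HET animal 9 and DN:WT animal 13 had 0 as well, although their type I members, and in animal 13 the type II members, were high. Counts this low were not tested.

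**Figure D5:**
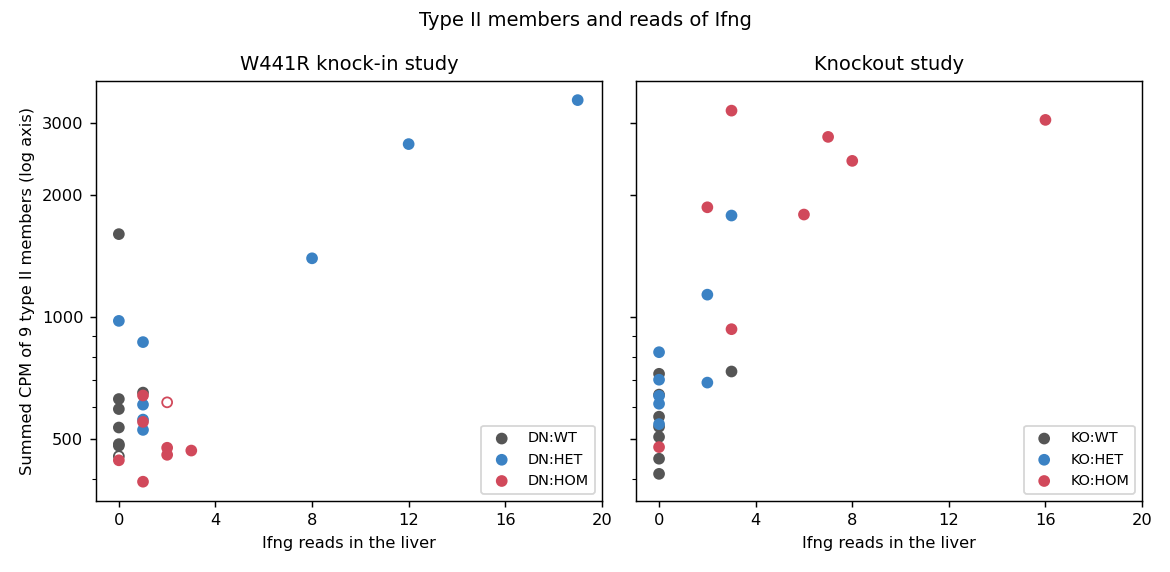
Summed level of the 9 type II members in CPM (vertical axis, logarithmic) against the number of Ifng reads (horizontal axis) in each liver of the knock-in study (left) and the knockout study (right), coloured by genotype, with open circles for the 2 livers left out. The 3 knock-in livers with 8 or more Ifng reads are DN:HET, DN:WT animal 13 lies at 1600 CPM with 0 reads, and DN:HOM livers have 0 to 3 reads.

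Receptors and signalling components were raised in both homozygous groups. Of 15 such genes, 11 were higher in DN:HOM and 9 in KO:HOM, and none lower in either, by edgeR's test, where 29.1% and 11.5% of all genes were higher. With all 48 livers these counts were 9 and 6. The interferon-γ receptor chain Ifngr1 stood at 13.5, 15.2 and 16.8 CPM in DN:WT and at 39.6, 52.3 and 61.4 CPM in DN:HOM without overlap (log2 fold change 1.79 ± 0.19), where none of the 9 type II members was called higher. Its rise in KO:HOM was 0.58 ± 0.17, and the difference between the studies, 1.21 ± 0.25, passed the test (edgeR adjusted p = 0.0002). With all 48 livers the rise in KO:HOM and the difference missed the threshold (edgeR adjusted p = 0.13 and 0.25). Ifngr2 likewise rose by 1.37 and 0.52. Ifnar1 rose by 0.24 in DN:HOM and Ifnar2 by 0.29 in DN:HOM and 0.24 in KO:HOM. Ifnlr1 and Il10rb, the chains of the interferon-λ receptor, rose by 2.97 and 2.07 in DN:HOM.

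Socs1, the feedback inhibitor of interferon-γ signalling, rose by 4.42 ± 0.61 in KO:HOM, from 0 to 0.605 CPM to 0.818 to 10.9 CPM. Socs3, an inhibitor acting mainly on cytokines of the interleukin-6 kind, rose by 2.15 in DN:HOM and by 1.18 in KO:HOM, where its edgeR adjusted p was 0.062 with all 48 livers.

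Lists of further targets outside the 36 were counted in the same way. Of 20 other type II targets 19 were tested, and 18 were higher in KO:HOM with a median log2 fold change of 2.66, against 4 higher and 3 lower in DN:HOM with a median of 0.15, which became 3 and 2 with all 48 livers. In DN:HET 10 of the 19 were higher, with a median of 1.40, where 2.23% of all genes were higher, or 6 with all 48 livers, where 0.250% were. Among all genes 11.5% were higher in KO:HOM, and 29.1% were higher and 30% lower in DN:HOM. The largest were Tgtp1 (5.37) and the class II transactivator Ciita (3.83) in KO:HOM, and Ciita (2.5) and Gbp10 (-2.13) in DN:HOM. Gbp10 stood at 4.6 to 37.8 CPM in DN:WT, 0.787 to 4.0 CPM in DN:HOM, 3.23 to 11.3 CPM in KO:WT and 11.1 to 143 CPM in KO:HOM. Ciita was higher in both models, and every DN:HOM liver (6.11 CPM or more) lay above every DN:WT liver (3.04 CPM or less). The chemokine Cxcl11 fell by 1.45 in DN:HOM. Of 28 other type I targets 27 were tested, with 12 higher and 1 lower in KO:HOM and 2 higher and 8 lower in DN:HOM, the latter a share of lower genes close to that of all genes and a smaller share of higher ones. With all 48 livers the counts were 10 and 0 in KO:HOM and 1 and 7 in DN:HOM. The macrophage lectin Siglec1 fell by 1.19 in DN:HOM and rose by 1.04 in KO:HOM, and Dtx3l, a partner of the Parp family, fell by 0.74 and rose by 0.33. The rise of Dtx3l was lost with all 48 livers (edgeR adjusted p = 0.1). Of 17 nucleic acid sensors and genes of interferon induction, 11 were higher and 2 lower in KO:HOM and 10 higher and 2 lower in DN:HOM, which became 10 and 1 and 9 and 2 with all 48 livers. Those higher included Tlr9 (2.68 and 2.13), Sting1 (2.14 and 1.96) and Cgas (1.11 and 1.09). The 2 lower genes were the same in both models, Irf3 (-0.22 and -0.23), a factor that induces interferon-β, and the mitochondrial adaptor Mavs, which fell by 1.04 in DN:HOM and by 0.30 in KO:HOM. With all 48 livers the rise of Tlr9 in DN:HOM and the fall of Mavs in KO:HOM missed the threshold (edgeR adjusted p = 0.065 and 0.12).

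Markers of other cell types moved with several of these values, and their part in them was not tested. The 5 hepatocyte markers were all lower in both models, with a median log2 fold change of -0.94 in DN:HOM and -0.56 in KO:HOM, and 4 and 2 of them were called with all 48 livers. In DN:HOM, neutrophil (3 of 3), cholangiocyte (4 of 4) and stellate cell markers (4 of 5, or 3 with all 48 livers) were higher, and endothelial markers were lower (4 of 5). In KO:HOM, neutrophil (2 of 3) and stellate cell markers (3 of 5) were higher, or 0 and 1 with all 48 livers. The 5 resident Kupffer cell markers were all lower in DN:HOM, from a summed 131 to 256 CPM to 1.56 to 3.50 CPM, and 3 of 5 were lower in KO:HOM, from 74.0 to 299 CPM to 21.7 to 66.1 CPM (2 of 5 with all 48 livers). The 6 monocyte and macrophage markers were all higher in DN:HOM (747 to 1230 CPM summed, against 72.2 to 140 CPM), or 5 of 6 with all 48 livers, and 5 of 6 were higher in KO:HOM (199 to 921 CPM, against 48.6 to 150 CPM). T cell markers were higher for 5 of 5 in KO:HOM, 4 of 5 in DN:HET and 3 of 5 in DN:HOM, and with all 48 livers for 5, 2 and 1. Summed, they reached 5.29 to 22 CPM in KO:HOM against 1.86 to 4.77 CPM in KO:WT, 2.52 to 23.5 CPM in DN:HET, and 3.35 to 5.90 CPM in DN:HOM against 1.81 to 3.78 CPM in DN:WT. DN:HET animals 22 and 4, highest in the type II members, had 23.5 and 20.6 CPM of T cell markers, and DN:WT animal 13 had 3.40 CPM, inside the range of the other DN:WT livers. Within KO:HOM the order differed from that of the type II members: animals 20 and 26, highest in their summed level, had 7.34 and 8.41 CPM of T cell markers, animals 8 and 11 had the most (22 and 19.3 CPM), and animals 22 and 30, lowest in the type II members, had 5.29 and 10.6 CPM. DN:HET animals 22 and 4 were also the highest of their group in monocyte and macrophage markers (802 and 767 CPM, the group median being 154 CPM), Kupffer cell markers (598 and 552 CPM, median 230 CPM) and conventional dendritic cell markers (35.2 and 27.1 CPM, median 11.8 CPM). In DN:HET 3 of 6 monocyte and macrophage markers and 2 of 4 conventional dendritic cell markers were called higher, and with all 48 livers none. Conventional dendritic cell markers were higher for 3 of 4 in KO:HOM (2 with all 48 livers) and 2 of 4 in DN:HOM. Plasmacytoid dendritic cell markers, of a cell type known for making type I interferon, summed to 2.15 CPM in KO:HET animal 9 and 0.471 to 3.92 CPM over KO:HET. Of the 2 such markers tested, 2 were higher in KO:HOM (0 with all 48 livers) and 1 in DN:HOM. The natural killer cell markers summed to no more than 3.80 CPM in any liver, and 1 of 5 was abundant enough to be tested, or 0 with all 48 livers. That marker was called higher in DN:HOM (log2 fold change 1.45), where 29.1% of all genes were. It was not called in KO:HOM (1.45) or DN:HET (1.58).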

How the data were processed

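The authors aligned stranded reads with STAR 2.5.0a, per the submitters' processing notes, to GRCm39 and deposited a count of reads per gene and strand for each liver. Gene identifiers were matched to GENCODE vM39 symbols, and counts of the gene's own strand were used, which exceeded the other strand 6.967 to 8.619 times. Rows naming no gene held 24.02% to 34.99% of reads and were left out. No 2 livers had identical counts. DN:WT animal 10 and DN:HOM animal 12 were left out after matching 22 knock-in livers to the study's source data by the value profile of 5 genes. The other 46 livers were fitted with 6 group means by edgeR 4.0.16 (filterByExpr, TMM scaling, quasi-likelihood test) under R 4.3.3, with Benjamini-Hochberg adjustment over 15711 genes and a threshold of 0.05, and the script was tested on simulated data. CPM used TMM-scaled library sizes, per-kilobase levels the summed exon length, and mean log2 levels a pseudocount of 1. Alternatives covered DESeq2 1.42.0, scaling, filters, strand, the livers fitted and depth. P-values measure the spread between livers of a group. Counting error alone is covered by the limit of 3 reads for a count of 0. Promoters came from RefSeq. The members and lists were chosen with earlier results of these data known. Levels per group, as range or as lowest, median and highest, were given for the 3 type I and 3 type II members with the largest called change in a homozygous comparison and for Irf1, Irf7, Irf9, Stat2 and Isg15. Ifit3, Bst2 and other members were added after their values were seen, and other pathway genes were named as interferon genes with a read, receptors or the largest called changes of their list, with others added after their values were seen. A signalling gene of the lists is not reported here.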

Additional observations from a re-analysis of the deposited data

Results flagged for a closer look

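In 228 sets of values (each member, and the 2 summed levels, in each of the 6 groups), 43 single livers stood apart from their group by Dixon's criterion, which chance meets in about 1 of 20 sets. The sets share livers and are not independent. DN:WT animal 13 accounted for 24 of them, always as the highest liver. Its type II members were Igtp at 205 CPM (next liver 45.8), Irgm2 at 217 (51.6), Irgm1 at 170 (74.5), Iigp1 at 808 (408), Gbp2 at 15.9 (7.07), Gbp3 at 32.2 (13.8), Gbp6 at 20.2 (9.25), Gbp7 at 48.4 (22) and Irf1 at 82.8 (48.9). Its type I members were Ifit1 at 24.9 CPM (next liver 14.7), Ifit2 at 9.83 (6.28), Ifit3 at 30.2 (18.7), Ifi44 at 9.76 (5.07), Irf7 at 82.7 (42.4), Irf9 at 65.1 (44.0), Oas3 at 4.88 (1.67), Oasl2 at 16.4 (7.07), Zbp1 at 25.1 (8.42), Parp14 at 68.5 (41.1), Xaf1 at 17 (9.18), Cmpk2 at 20.3 (9.83) and Rtp4 at 35.9 (19). Its summed type I level was 1050 CPM (next 720) and its summed type II level 1600 CPM (next 652).

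KO:HET animal 9 was the highest of its group in type I members alone, with Isg15 at 18.2 CPM (next liver 11.7), Ifi44 at 15 (5.88), Oas1a at 11.3 (5.51), Oas3 at 3.93 (1.96), Oasl1 at 25.7 (13.8), Mx2 at 16 (7.97), Usp18 at 38.0 (15.7), Dhx58 at 21.7 (15) and Xaf1 at 19.2 (10.4). KO:HET animal 4 stood apart in type II members alone, with Igtp at 244 CPM (next 130), Irgm2 at 193 (111) and Iigp1 at 933 (616). KO:WT animal 5 did so in Gbp2 at 19.1 CPM (6.94) and Igtp at 61.5 (38.4). DN:HET animal 22 stood apart in Ifi35 at 43.8 CPM (34.4) and Stat2 at 138 (110), and DN:HOM animal 31 in Stat2 at 97.1 CPM (74.5), Oas2 at 8.24 (5.06) and Trim30a at 12.9 (10.7).

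For 17 members the homozygous effects differed between the knock-in and the knockout by a test of the difference itself (edgeR's quasi-likelihood test, Benjamini-Hochberg adjusted), and all 17 were lower in the knock-in. The differences in log2 units, each with its adjusted p, were -4.20 for Igtp (4.1e-05), -2.97 for Gbp6 (0.00026), -2.93 for Irgm2 (6.1e-05), -2.79 for Gbp2 (0.004), -2.60 for Gbp3 (0.00029), -2.50 for Gbp7 (3.6e-05), -2.32 for Irgm1 (6.4e-05), -2.07 for Iigp1 (0.00041) and -1.29 for Irf1 (0.011) among the type II members. Among the type I members they were -1.73 for Ifit3 (0.00012), -1.29 for Ifit2 (0.036), -1.0 for Rtp4 (0.034), -0.79 for Bst2 (0.00055), -0.74 for Dhx58 (0.011), -0.67 for Irf9 (0.0036), -0.63 for Stat2 (0.0018) and -0.48 for Ifih1 (0.016).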

How the results depend on the processing

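No direction of a called value turned under any alternative. In KO:HOM all 9 type II members were called higher under each alternative and 6 to 9 type I members, where 5.40% to 16.7% of all genes were. In DN:HOM the 2 type I members called higher became 0 with all 48 livers, 4 with library size alone, 1 without a filter on low counts and 4 with the compared groups alone, and the 6 called lower became 2 with library size alone. Type II members called lower in DN:HOM went from 0 to 1 with unstranded counts, without KO:HOM animal 22 and without DN:HET animals 4 and 22, and to 3 with the compared groups alone. The shares of all genes lower in DN:HOM in those fits were 29.6%, 30.9%, 31% and 30%. In DN:HET, type I members called higher went from 0 to 1 with DESeq2, with library size alone and without KO:HOM animal 22, and to 2 without DN:WT animal 13. The shares of all genes higher in those fits were 3.79%, 2.90%, 2.49% and 1.89%, against 2.23% in the main fit. Type II members called higher in DN:HET went from 1 to 3 with DESeq2, with library size alone and without KO:HOM animal 22, and to 6 without DN:WT animal 13. Their count went to 0 with the compared groups alone and without DN:HET animals 4 and 22, where 0.0144% and 0.0126% of all genes were higher. The type II median of 0.87 became 1.45 without animal 13 and 0.24 without animals 4 and 22. The 8 type I differences between studies became 3 with all 48 livers and 2 with library size alone. In those fits 6.42% and 8.50% of all genes passed below 0, against 18.3% in the main fit. With 1 more A before the ISRE core, 4 type I and 2 type II members held it in place of 10 and 6. Among all genes with a promoter the share was 1.7% in place of 4.0%. The livers left out singly or in pairs were chosen after seeing the data. The causes were not tested. Differences between studies could not be fitted with each study alone. No paired analysis was possible because the animal numbers do not tie livers together across genotypes. Depth limits the interferon genes, whose counts were too low to test.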
